A study of Homo sapiens with 9 samples.

Results

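Cadherins are the calcium-dependent adhesion molecules of adherens junctions, and the genes described here are 3 of them, CDH1, CDH2 and CDH3, with VIM, SNAI1, SNAI2, ZEB1, ZEB2, EPCAM and ESRP1. They were taken by symbol from the gene count table, which held all 10 among its 40332 symbols. RNA was sequenced from the established human embryonic stem cell line H1, of wild-type genotype, in 3 culture groups of 3 libraries each. Libraries of the first group came from cells in N2B27 medium with 5 µM EPZ-6438 for 3 days, and those of the second from cells in N2B27 without the inhibitor. The third group was kept in PXGL, a culture medium for naive human pluripotency whose components inhibit MEK, protein kinase C and tankyrase and supply LIF, and the titles of both N2B27 groups also name their cells as PXGL cells. EPZ-6438 blocks the catalytic activity of EZH2, the enzyme of Polycomb repressive complex 2 that methylates histone H3 at lysine 27. The labels name no vehicle, and the sources used here do not say how long cells stayed in N2B27 without the inhibitor, so the inhibitor and time out of PXGL cannot be told apart. Every group is 1 cell line, and nothing says whether the 3 libraries of a group came from separate cultures.

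In epithelia, E-cadherin, the product of CDH1, joins neighbouring cells and is linked to actin through catenins. During epithelial-mesenchymal transition (EMT), zinc-finger repressors of the SNAI and ZEB families bind E-box sequences in the CDH1 promoter, E-cadherin is lost, and cells gain N-cadherin (CDH2) and the intermediate filament vimentin (VIM). Human pluripotent stem cells grow as epithelial colonies held together by E-cadherin and also express EPCAM, a surface adhesion molecule of epithelial and pluripotent cells. ESRP1, an RNA-binding protein, maintains the epithelial pattern of splicing.

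Totals were 14482124 to 18358519 counts in each library; levels are in CPM, counts scaled to a common library total with TMM, and 3 counts make 0.163 to 0.207 CPM. PXGL replicate 1 stood apart: it differed from the other PXGL libraries by a median of 0.221 and 0.248 on the log2 scale over genes, against 0.113 between those 2. The summed level of POU5F1, NANOG and SOX2, which define pluripotent cells, was 1560 to 1620 CPM in N2B27 with EPZ-6438, 1980 to 2010 CPM in N2B27 and 1740 to 2080 CPM in PXGL. Each of the 3 was lower with the inhibitor than in N2B27 at an adjusted p under 0.05, as were 10.6% of all genes tested. SOX2 had 55.2 to 69.6 CPM with the inhibitor and 112 to 122 CPM in N2B27. EZH2 RNA, which does not report the enzyme's activity, averaged 82.4 ± 3.61 CPM in N2B27 with EPZ-6438, 71.9 ± 2.85 CPM in N2B27 and 78.2 ± 1.49 CPM in PXGL (SD, n = 3 each). Only its difference between the N2B27 groups passed (log2 0.20, adjusted p = 0.0415). In these bulk samples, fewer cells of a type and less RNA per cell cannot be told apart.

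VIM, which differed most between media among the 8 genes tested, was also the only gene called with the inhibitor against N2B27 for which the RefSeq promoter table (GRCh38.p14) held a window. The 250 bases before its start are shown because PRC2 is known to act at promoters rich in CG dinucleotides, which are in capitals, and because the repressors SNAI1 and ZEB recognise CAGGTG. They lie at chr10:17227991-17228240 on the plus strand, outside the GENCODE 29 VIM gene and its exons. The stretch lies within the span of the antisense gene VIM-AS1.
VIM promoter: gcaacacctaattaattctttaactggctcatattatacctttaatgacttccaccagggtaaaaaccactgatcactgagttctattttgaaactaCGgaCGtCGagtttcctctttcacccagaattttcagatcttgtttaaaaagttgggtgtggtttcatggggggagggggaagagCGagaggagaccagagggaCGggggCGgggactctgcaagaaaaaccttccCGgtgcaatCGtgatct
This stretch held 8 CG dinucleotides at 46.0% G and C, against medians of 11 and 58.0% over the 35116 windows in the table, of which 56.3% held as many or more. Neither CAGGTG nor its reverse complement CACCTG occurred in it; 17.5% of all windows held at least 1 of them. Windows were found for 4 of the 10 genes. In the 2 windows of CDH2 and the 1 of ZEB2 neither motif occurred, and 2 of the 7 windows of ZEB1 held it, 1 with a single match and 1 with 2. A match describes letters in the window and no bound factor.

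EPZ-6438 in N2B27, compared with N2B27 alone, was the comparison made for the inhibitor. CDH1, VIM and SNAI1 were higher with the inhibitor by 1.19-fold, 1.40-fold and 1.83-fold, and CDH3 and ESRP1 were lower by 1.35-fold and 1.15-fold. CDH2, ZEB2 and EPCAM did not pass. Of 8 genes tested, 3 were thus higher and 2 lower at an adjusted p under 0.05, where 14.2% of all 15179 genes tested were higher and 10.6% lower (edgeR quasi-likelihood test, Benjamini-Hochberg adjustment over all genes tested). The median log2 fold change of the 8 was 0.37, against 0.01 over all genes. SNAI2 and ZEB1 fell below the filter on low counts, so the 8 are not all of the chosen genes.

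N2B27 compared with PXGL followed the cells out of the naive medium. All 8 tested genes passed: VIM was 9.59-fold higher, CDH2 3.61-fold, ZEB2 3.12-fold, EPCAM 1.59-fold, ESRP1 1.497-fold and CDH3 1.36-fold higher, whereas CDH1 was 1.70-fold and SNAI1 1.68-fold lower. ZEB2 was among the 8 only through its counts in the inhibitor libraries, where it was highest. It fell below the filter when N2B27 and PXGL were fitted alone. Among all genes tested 27.3% were higher and 28.7% lower, so calls were common in this comparison. The median log2 fold change was 0.63 for the 8 genes and -0.03 for all genes. Both comparisons use the same N2B27 libraries, and they are therefore not independent of each other.

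Set against PXGL, the cells in N2B27 with EPZ-6438 had 5 of the 8 genes higher, 1 lower and 2 that did not pass, where 28.1% of all genes tested were higher and 28.0% lower. VIM was 13.4-fold, CDH2 6.80-fold, ZEB2 6.37-fold, EPCAM 1.73-fold and ESRP1 1.30-fold higher, and CDH1 was 1.42-fold lower. ZEB2 was again among the 8 only through the inhibitor libraries. CDH3 and SNAI1 did not pass. They, CDH1 and ESRP1 were the called genes with opposite directions in the 2 comparisons above, and CDH1 and ESRP1 passed here. The median log2 fold change was 0.58 for the 8 genes and -0.0015 for all genes.

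**Figure D1:**
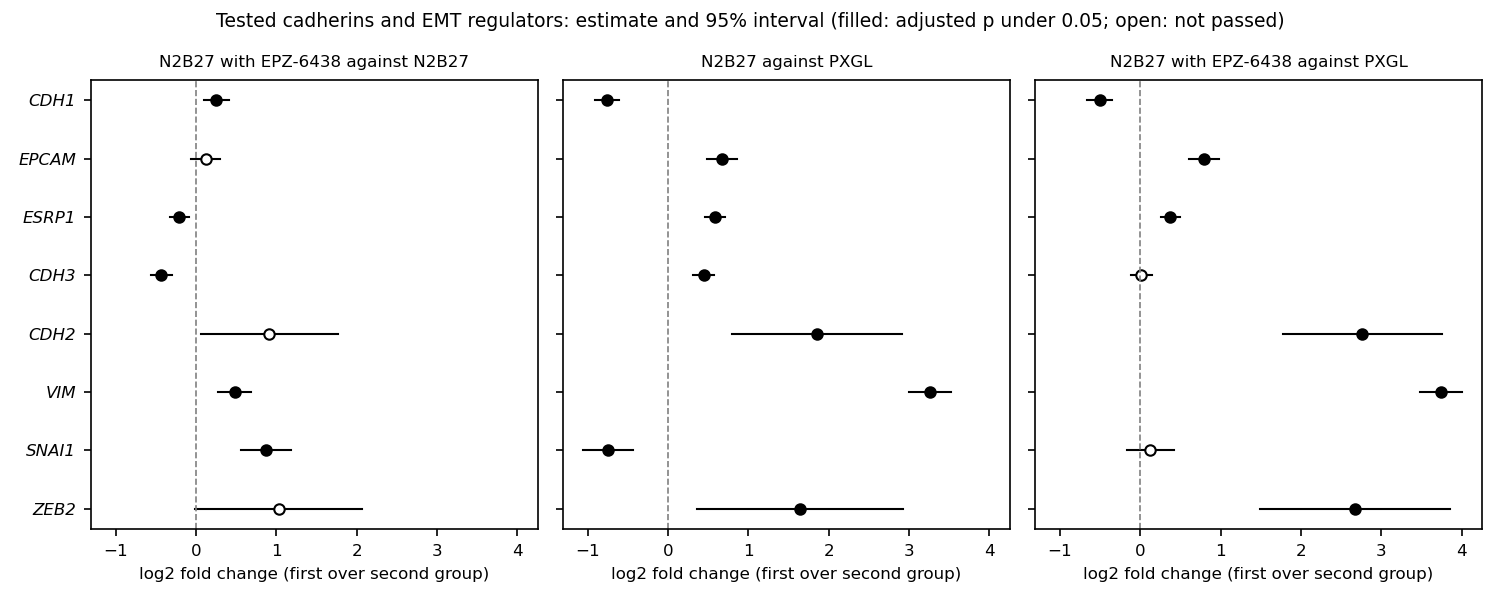
Log2 fold change (x axis, first over second group) of the 8 tested genes (y axis) in each comparison, with 95% intervals as bars; filled points passed an adjusted p under 0.05. Points for VIM, CDH2 and ZEB2 lie farthest to the right against PXGL, and CDH3 and SNAI1 sit at 0.01 and 0.13 with intervals across 0 in the right panel.

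CDH1 (chromosome 16, 68737225 to 68835548, plus strand, hg38, GENCODE 29) encodes E-cadherin. Its level was 300.3, 304.4 and 304.9 CPM in N2B27 with EPZ-6438, 252.0, 253.6 and 256.6 CPM in N2B27, and 374.7, 456.0 and 461.2 CPM in PXGL. The 3 groups did not overlap, with PXGL highest and N2B27 lowest. With the inhibitor CDH1 was higher than in N2B27 by 0.26 on the log2 scale (SE 0.07, adjusted p = 0.0162). That call ended when any 1 of the 6 libraries of these groups was left out, at adjusted p values of 0.0501 to 0.0665 and log2 values of 0.25 to 0.26. In N2B27 it was lower than in PXGL (log2 -0.76, SE 0.07, adjusted p = 1.7e-07), and with the inhibitor the log2 difference from PXGL was -0.51 (SE 0.07, adjusted p = 1.64e-05). Without PXGL replicate 1, the library with the least CDH1 in its group, the log2 difference of N2B27 from PXGL was -0.85.

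EPCAM (chromosome 2, 47345158 to 47387601, plus strand) ran the other way across media. Cells in N2B27 with EPZ-6438 had 170.2, 177.5 and 173.7 CPM, cells in N2B27 155.9, 160.3 and 163.6 CPM, and cells in PXGL 120.0, 91.6 and 90.1 CPM. Both N2B27 groups lay above every PXGL library. The difference between N2B27 and PXGL was 0.67 on the log2 scale (SE 0.09, adjusted p = 7.1e-06), and between the inhibitor group and PXGL 0.79 (SE 0.09, adjusted p = 1.1e-06). Between the inhibitor group and N2B27 it was 0.12, with a 95% interval of -0.07 to 0.31 and an adjusted p of 0.348. That difference passed at 0.0181 when only these 2 groups were fitted and at 0.0252 without PXGL replicate 1.

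ESRP1 (chromosome 8, 94641074 to 94707466, plus strand), the splicing regulator, was highest in N2B27. It had 235.6, 244.8 and 254.7 CPM with the inhibitor, 282.1, 278.5 and 287.9 CPM in N2B27, and 187.7, 187.0 and 191.9 CPM in PXGL, with no overlap between groups. Its log2 difference was -0.21 with the inhibitor against N2B27 (SE 0.06, adjusted p = 0.0135), 0.58 in N2B27 against PXGL (SE 0.06, adjusted p = 2.47e-07) and 0.38 with the inhibitor against PXGL (SE 0.06, adjusted p = 3.23e-05). The call against N2B27 ended without replicate 1 or 2 of the inhibitor group (adjusted p = 0.0721 and 0.0507) and without N2B27 replicate 3 (adjusted p = 0.062).

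CDH3 (chromosome 16, 68636189 to 68722616) encodes P-cadherin and lies upstream of CDH1 on the same strand. It measured 98.9, 97.2 and 104.7 CPM in N2B27 with EPZ-6438, 138.0, 130.3 and 137.3 CPM in N2B27, and 96.5, 101.0 and 100.3 CPM in PXGL. N2B27 libraries stood above all others, and the inhibitor and PXGL libraries overlapped. With the inhibitor CDH3 was lower than in N2B27 (log2 -0.43, SE 0.06, adjusted p = 7.34e-05), and in N2B27 it was higher than in PXGL (log2 0.45, SE 0.06, adjusted p = 1.23e-05). The difference between the inhibitor group and PXGL was 0.01 on the log2 scale with a 95% interval of -0.12 to 0.15 (adjusted p = 0.859), which leaves room for a change of up to that size. In both comparisons with N2B27, the neighbours CDH3 and CDH1 had opposite signs.

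CDH2 (chromosome 18, 27950966 to 28177446, minus strand), N-cadherin, was near the limit of detection. Counts were 23, 38 and 39 in N2B27 with EPZ-6438, 19, 13 and 18 in N2B27, and 7, 2 and 8 in PXGL, or means of 2.16 ± 0.564, 1.15 ± 0.21 and 0.312 ± 0.178 CPM in that order (SD, n = 3 each). No 2 groups overlapped in CPM. N2B27 exceeded PXGL by 1.85 on the log2 scale (SE 0.50, adjusted p = 0.00461) and the inhibitor group exceeded PXGL by 2.76 (SE 0.47, adjusted p = 9.41e-05). The inhibitor group against N2B27 gave 0.91 with a 95% interval of 0.06 to 1.77, and its adjusted p of 0.114 did not pass.

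Per kilobase of transcript, CDH1 remained the main cadherin of the 3 in every library. It made up 79.3 ± 0.628% of their summed level in N2B27 with EPZ-6438, 70.7 ± 0.694% in N2B27 and 84.7 ± 1.22% in PXGL (SD, n = 3 each). CDH3 supplied 20.3 ± 0.581%, 29.1 ± 0.648% and 15.2 ± 1.21% in the same groups. CDH2 stayed at 0.462 ± 0.115%, 0.26 ± 0.0458% and 0.0514 ± 0.03%. The ratio of CDH1 to CDH3 per kilobase was 3.93, 4.05 and 3.76 with the inhibitor, 2.36, 2.51 and 2.42 in N2B27, and 5.02, 5.84 and 5.94 in PXGL. The groups did not overlap in this ratio, with the inhibitor group between the others. The summed level itself was 116 ± 1.55, 109 ± 1.31 and 154 ± 15.2 CPM per kilobase in the same order.

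**Figure D2:**
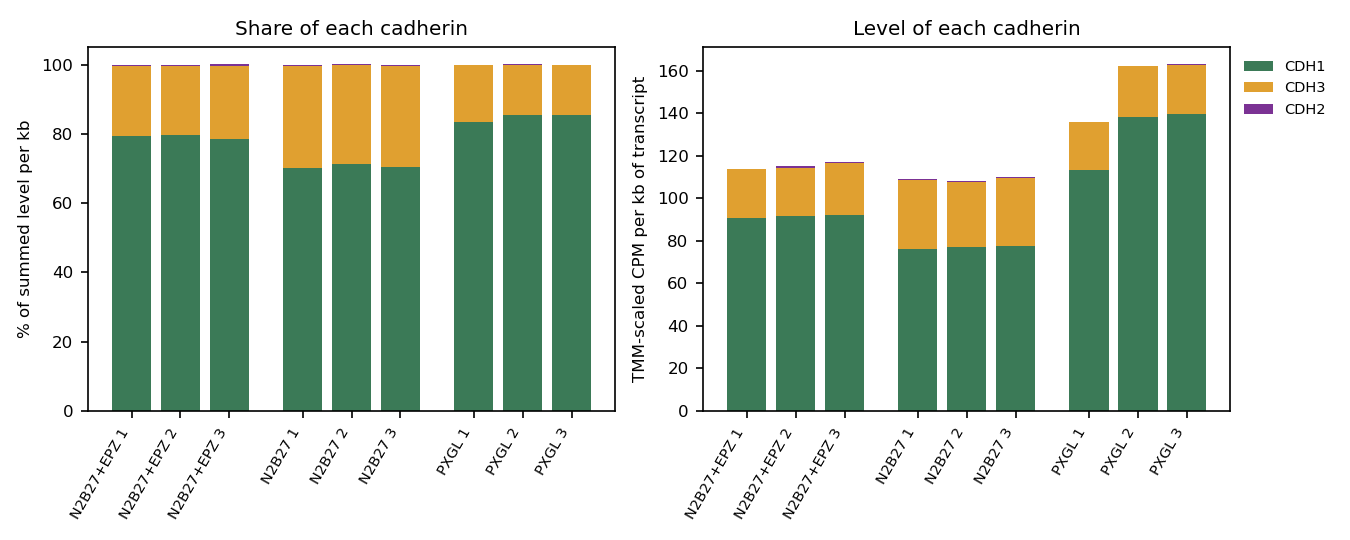
Share of CDH1, CDH3 and CDH2 in their summed level per kilobase (left, %) and the level itself (right, TMM-scaled CPM per kilobase of median coding transcript), 1 stacked bar per library. CDH1 is 78.6 to 79.8% in N2B27 with EPZ-6438, 70.0 to 71.4% in N2B27 and 83.3 to 85.5% in PXGL; the CDH2 segment is under 1% in all 9 bars and barely visible.

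VIM (chromosome 10, 17228259 to 17237593, plus strand), vimentin, had 57.2, 54.7 and 53.2 CPM in N2B27 with EPZ-6438, 44.5, 37.5 and 36.4 CPM in N2B27, and 4.77, 3.61 and 3.94 CPM in PXGL. Every inhibitor library exceeded every N2B27 library, and both groups stood far above PXGL. The log2 difference was 0.48 with the inhibitor against N2B27 (SE 0.10, adjusted p = 0.00156), 3.26 in N2B27 against PXGL (SE 0.12, adjusted p = 1.47e-12) and 3.74 with the inhibitor against PXGL (SE 0.12, adjusted p = 2.69e-13). VIM values were not whole in 5 of the 9 libraries, as happens where a counting program splits reads among genes. The antisense gene VIM-AS1 shares 641 exon bases with VIM but summed to only 22, 28 and 10 counts in the same 3 groups, against 2540, 1719 and 224 for VIM. Another antisense gene, AL133415.1, shares 619 exon bases with VIM and had no row of that symbol among the counts. As nothing states whether counting used strand, reads from VIM and these antisense genes cannot be told apart. Antisense genes also share 694 exon bases with CDH3, 347 with CDH1 and 136 with CDH2, under the same limit.

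**Figure D3:**
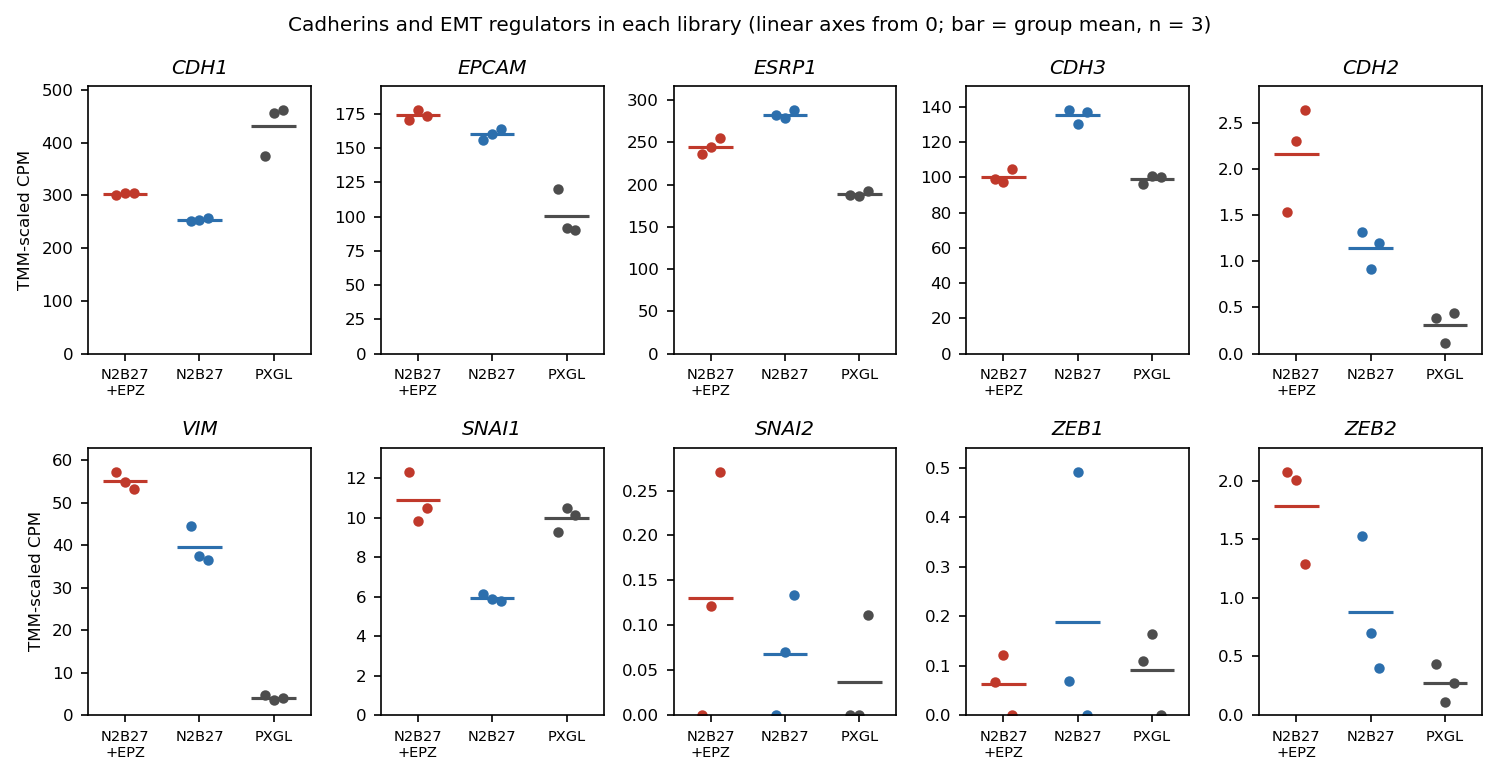
TMM-scaled CPM (y axis, linear from 0, a scale of its own per gene) of each of the 10 genes in every library, by group (x axis); points are libraries and bars the mean of 3. PXGL has the highest CDH1 and the lowest VIM, CDH2 and EPCAM means, SNAI1 and CDH3 in N2B27 with EPZ-6438 overlap PXGL, and SNAI2 and ZEB1 stay under 0.5 CPM.

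SNAI1 (chromosome 20, 49982999 to 49988886, plus strand), which encodes Snail, a repressor of CDH1 and a short-lived protein, was the EMT transcription factor with the most RNA among the 4 chosen. It had 12.3, 9.84 and 10.5 CPM in N2B27 with EPZ-6438, 6.12, 5.90 and 5.80 CPM in N2B27, and 9.26, 10.5 and 10.2 CPM in PXGL. N2B27 libraries lay below all others, and the inhibitor and PXGL libraries overlapped. The log2 difference was 0.87 with the inhibitor against N2B27 (SE 0.15, adjusted p = 0.000311) and -0.75 in N2B27 against PXGL (SE 0.15, adjusted p = 0.000363). Against PXGL the inhibitor group gave 0.13 with a 95% interval of -0.16 to 0.42 (adjusted p = 0.458). SNAI1 and its target CDH1 therefore had the same sign in each comparison with N2B27, both higher with the inhibitor and both lower than in PXGL.

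ZEB2 (chromosome 2, 144364364 to 144524583, minus strand), a repressor of CDH1 with a zinc-finger cluster at each end, had 31, 33 and 19 counts in N2B27 with EPZ-6438, 22, 10 and 6 in N2B27, and 8, 2 and 5 in PXGL. That is 1.79 ± 0.437, 0.878 ± 0.585 and 0.275 ± 0.164 CPM (SD, n = 3 each). The inhibitor and N2B27 groups overlapped, as did N2B27 and PXGL. The inhibitor group exceeded PXGL by 2.67 on the log2 scale (SE 0.56, adjusted p = 0.000646). N2B27 exceeded PXGL by 1.64 (SE 0.60, adjusted p = 0.029), a call lost without N2B27 replicate 1 (log2 0.98, adjusted p = 0.23), without PXGL replicate 2 (log2 1.27, adjusted p = 0.114) and without PXGL replicate 3 (adjusted p = 0.0573). Between the inhibitor group and N2B27 the difference was 1.03 with an interval of -0.01 to 2.07 (adjusted p = 0.141), and without N2B27 replicate 1 it was 1.69 (adjusted p = 0.0497). No count fell to ZEB2-AS1, which shares 1299 exon bases with ZEB2.

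SNAI2 (chromosome 8, 48917604 to 48921740, minus strand) and ZEB1 (chromosome 10, 31318495 to 31529814, plus strand), the close relatives of SNAI1 and ZEB2, were too low to test. SNAI2 had 0, 2 and 4 counts in N2B27 with EPZ-6438, 0, 1 and 2 in N2B27, and 0, 0 and 2 in PXGL. ZEB1 had 1, 2 and 0 counts with the inhibitor, 1, 7 and 0 in N2B27, and 2, 3 and 0 in PXGL. The ratio of summed SNAI2 with the inhibitor to that in N2B27 was 1.89, with a 95% counting interval of 0.404 to 11.7, and that of ZEB1 was 0.354, with an interval of 0.0606 to 1.48. Differences of several-fold were not detectable at this depth for either gene. ZEB1-AS1, antisense to ZEB1 with 366 shared exon bases, had 54, 47 and 79 counts in the 3 groups in the same order, more than ZEB1 itself, and did not pass in any comparison.

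Ordered by mean level per kilobase, EPCAM came first in N2B27 with EPZ-6438 at 107 ± 2.22 CPM per kilobase, ahead of CDH1 at 91.8 ± 0.771, ESRP1 at 65.3 ± 2.54, VIM at 29.5 ± 1.1, CDH3 at 23.5 ± 0.923 and SNAI1 at 6.46 ± 0.765 (SD, n = 3 each). In N2B27 the order was EPCAM at 98.3 ± 2.37, CDH1 at 76.9 ± 0.71, ESRP1 at 75.4 ± 1.26, CDH3 at 31.7 ± 0.994, VIM at 21.1 ± 2.37 and SNAI1 at 3.52 ± 0.0985 CPM per kilobase. PXGL began with CDH1 at 130 ± 14.7, followed by EPCAM at 61.8 ± 10.3, ESRP1 at 50.3 ± 0.71, CDH3 at 23.2 ± 0.573, SNAI1 at 5.92 ± 0.381 and VIM at 2.2 ± 0.319 CPM per kilobase. CDH2, ZEB2, SNAI2 and ZEB1 were under 1 CPM per kilobase in all groups. CDH1 and ESRP1 in N2B27, and EPCAM and ESRP1 in PXGL, stood within about the sum of their SDs. So did CDH2 and ZEB2, and SNAI2 and ZEB1, in each group, and ZEB2 and ZEB1 in N2B27 and PXGL. The order depends on the length used: with all annotated exons merged, ESRP1 came before CDH1 in both N2B27 groups, and CDH3 before VIM with the inhibitor.

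Other genes of cell adhesion and EMT were then counted by list, beginning with the inhibitor against N2B27, where 14.2% of all genes tested were higher and 10.6% lower. Of 17 other cadherins 8 were tested, of which 4 were higher, 1 lower and 3 did not pass (median log2 0.88); the number lower was 2 without any 1 PXGL replicate. CDH4, a cadherin of retina and nervous system, averaged 10.8 ± 2.56 CPM with the inhibitor and 2.15 ± 0.372 CPM in N2B27 (adjusted p = 1.2e-06). CDH11 was 3.63-fold, CDH6 3.24-fold and CDH5, the cadherin of endothelium, 2.35-fold higher. CDH26, named after its values were seen as the 1 lower gene, averaged 0.989 ± 0.208 CPM with the inhibitor and 5.06 ± 0.558 CPM in N2B27 (adjusted p = 0.000254).

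Of 10 tested partners of cadherins at the adherens junction 3 were higher, 2 lower and 5 did not pass with the inhibitor (median log2 0.13). NECTIN3, an immunoglobulin-like adhesion molecule, was 2.33-fold and the catenin CTNND2 3.58-fold higher, whereas NECTIN2 was 1.39-fold and VCL (vinculin, which anchors actin) 1.28-fold lower. CTNND2 was low, at 1.58 ± 0.378 CPM with the inhibitor and 0.436 ± 0.0488 CPM in N2B27. It passed the filter on low counts only through the inhibitor group. Without PXGL replicate 1 the number higher was 6. Of 34 other genes of epithelial junctions and surfaces 10 were higher, 5 lower and 19 did not pass (median log2 -0.03), and without PXGL replicate 1 the number lower was 10. The desmosomal cadherin DSC2 averaged 102 ± 1.98 CPM with the inhibitor and 56.2 ± 4.77 CPM in N2B27 (adjusted p = 2.03e-07). MAL2 was 2.12-fold and the keratin KRT8 1.32-fold higher, and the tight junction protein TJP3 was 1.63-fold lower. Of 10 tested epithelial regulators 5 were higher, 1 lower and 4 did not pass (median log2 0.28). They included ELF3 at 1.67-fold, KLF4 at 1.41-fold, GRHL2 at 4.08-fold and GRHL3 at 2.21-fold higher. Without PXGL replicate 1 the number lower was 3.

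Of 14 other EMT transcription factors tested with the inhibitor against N2B27, 10 were higher, 2 lower and 2 did not pass (median log2 1.60, against 0.01 over all genes). PRRX1, MSX1 and GSC passed the filter on low counts only through the inhibitor group, where they were high. The counts and the median include these genes, which could be tested only by being high with the inhibitor. FOXC1 averaged 12.4 ± 2.15 CPM with the inhibitor and 1.49 ± 0.253 CPM in N2B27, an 8.26-fold difference (adjusted p = 2.01e-08). TWIST1, a basic helix-loop-helix inducer of mesenchyme, was 4.42-fold, SOX9 4.54-fold and ID2 5.47-fold higher. The list did not separate inducers of EMT from other genes such as ID2, so its counts in any comparison give no direction of EMT. The number lower was 1 under several alternatives, among them without any 1 replicate of the inhibitor group. Of 18 tested mesenchymal and matrix genes 9 were higher, 3 lower and 6 did not pass (median log2 0.37), and without PXGL replicate 1 the number lower was 5. MMP2, a matrix protease, averaged 103 ± 2.02 CPM with the inhibitor and 23.5 ± 2.74 CPM in N2B27 (adjusted p = 1.06e-10), and FN1 (fibronectin) was 2.47-fold and LOXL2 1.70-fold higher. Of 13 genes whose products bind Snail or set its stability 2 were higher, 2 lower and 9 did not pass (median log2 -0.09), shares near those of 14.2% and 10.6% over all genes. HDAC1, a deacetylase of its repressor complex, was 1.21-fold and the kinase PAK1 1.31-fold lower. RCOR1 was 1.23-fold higher (adjusted p = 0.0191) and the ubiquitin ligase subunit FBXW7 1.19-fold (adjusted p = 0.0456). Both of these calls ended when single libraries were left out, at adjusted p values of up to 0.104 and 0.151.

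**Figure D4:**
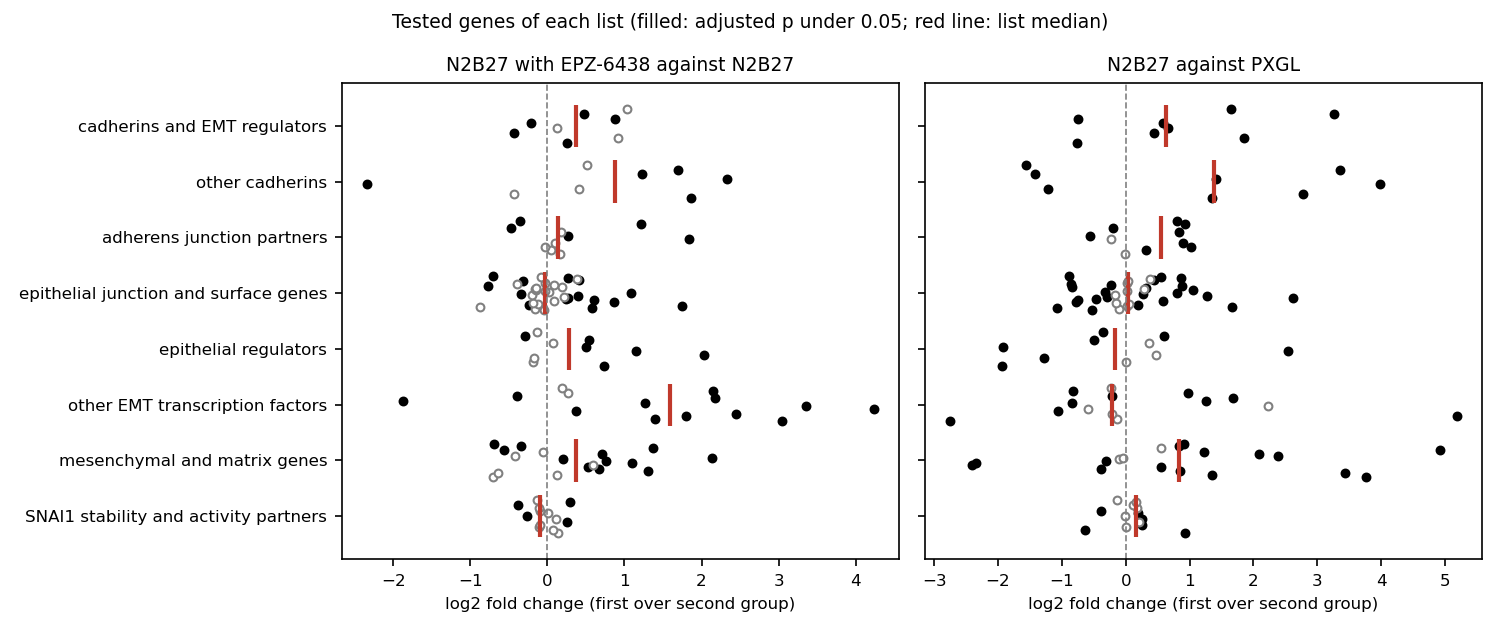
Log2 fold change (x axis) of each tested gene of the 8 lists (y axis), for N2B27 with EPZ-6438 against N2B27 (left) and N2B27 against PXGL (right). Filled points passed an adjusted p under 0.05 and red lines are medians; the line of the other EMT transcription factors is at 1.60 on the left and -0.22 on the right. That list includes PRRX1, MSX1 and GSC, which were tested only through their counts in the inhibitor group.

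In N2B27 against PXGL, where 27.3% of all genes tested were higher and 28.7% lower, the other cadherins gave 5 higher and 3 lower of 8 tested (median log2 1.38), with CDH26 15.9-fold, CDH6 10.2-fold and the membrane-anchored CDH13 6.86-fold higher and CDH24 2.33-fold lower. CDH26 and CDH6 were near the limit of detection in PXGL, at 0.311 ± 0.311 and 0.274 ± 0.197 CPM, so the size of these folds is uncertain. Of the adherens junction partners 6 of 10 were higher, 2 lower and 2 did not pass (median log2 0.56). Catenin beta, CTNNB1, which binds the tail of E-cadherin, averaged 372 ± 5.59 CPM in N2B27 and 183 ± 10.7 CPM in PXGL (adjusted p = 6.66e-10), and CTNND1, p120 catenin, was 1.86-fold higher. NECTIN1 was 1.78-fold and VCL 1.74-fold higher. CDH1 itself was lower in the same comparison.

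Among epithelial junction and surface genes 13 were higher in N2B27 than in PXGL, 11 lower and 10 did not pass (median log2 0.03). The simple-epithelium keratins KRT18 and KRT8 were 6.15-fold and 2.43-fold and the tight junction protein OCLN 2.09-fold higher, whereas the desmosomal PKP3 was 1.80-fold lower. Of the 10 tested epithelial regulators 2 were higher, 5 lower and 3 did not pass (median log2 -0.18). ELF3 averaged 41.4 ± 2.4 CPM in N2B27 and 158 ± 5.2 CPM in PXGL (adjusted p = 1.91e-12), KLF4 was 3.797-fold and GRHL1 2.43-fold lower, and GRHL3 was 5.85-fold higher. The 14 other EMT transcription factors gave 4 higher, 5 lower and 5 that did not pass (median log2 -0.22), near the shares over all genes. FOXC1 was 6.75-fold and KLF8 2.09-fold lower, and SOX9 was 3.21-fold and TCF4 1.97-fold higher. The number lower was 2 without N2B27 replicate 2 and 3 without PXGL replicate 2. With a stricter low-count filter the number higher was 2.

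Mesenchymal and matrix genes gave 11 higher, 4 lower and 3 that did not pass in N2B27 against PXGL (median log2 0.84). The actin-binding TAGLN averaged 76.1 ± 6.4 CPM in N2B27 and 2.51 ± 0.947 CPM in PXGL (adjusted p = 1.08e-12). CALD1 was 2.55-fold and SPARC 2.33-fold higher. Of the Snail partners 4 were higher, 2 lower and 7 did not pass (median log2 0.16). AJUBA, a co-repressor adaptor of Snail, was 1.90-fold and CTBP2 1.20-fold higher, and BTRC, a subunit of the ligase that marks Snail for degradation, was 1.56-fold and the demethylase KDM1A 1.31-fold lower.

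Against PXGL, with 28.1% of all genes tested higher and 28.0% lower, N2B27 with EPZ-6438 gave 5 higher and 2 lower of 8 other cadherins, with CDH6 33.1-fold and CDH4 13.3-fold, CDH11 9.20-fold and CDH13 5.08-fold higher. These folds rest on low PXGL means of 0.274, 0.807, 0.90 and 1.81 CPM, and CDH6 was near the limit of detection there. Adherens junction partners were higher in 7 and lower in 2 of 10, led by CTNNB1, CTNND1 and NECTIN1 at 1.99-fold, 2.00-fold and 2.01-fold and NECTIN3 at 4.44-fold. Epithelial junction genes gave 10 higher and 10 lower of 34, near the shares over all genes, with KRT18 7.38-fold, KRT8 3.21-fold and MAL2 3.70-fold higher and TJP3 3.02-fold lower. Epithelial regulators gave 4 higher and 4 lower of 10, with GRHL3 12.9-fold higher and KLF4 2.69-fold, ELF3 2.29-fold and GRHL1 2.75-fold lower. The EMT factors gave 8 higher and 2 lower of 14, SOX9 being 14.6-fold, ID2 4.69-fold and TCF4 2.37-fold higher and TCF3 1.52-fold lower. With a stricter low-count filter the number of EMT factors higher was 5. Of 18 mesenchymal genes 13 were higher and 2 lower, among them TAGLN at 20.4-fold, FN1 at 4.46-fold and MMP2 at 4.25-fold higher. Snail partners gave 6 higher and 4 lower of 13, AJUBA 2.09-fold and RCOR1 1.37-fold higher and BTRC 1.49-fold and KDM1A 1.40-fold lower.

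Summed markers of several other cell types differed between these groups. Over all genes tested, 14.2% were higher and 10.6% lower with the inhibitor against N2B27. In N2B27 against PXGL these shares were 27.3% and 28.7%. Primitive streak and mesoderm markers, 6 genes led by TBXT and MIXL1, summed to 130 to 140 CPM in N2B27 with EPZ-6438, 19.5 to 22.1 CPM in N2B27 and 10.9 to 12.6 CPM in PXGL, and with the inhibitor 4 of the 5 tested were higher than in N2B27. Among the 5, GSC was tested only through its counts in the inhibitor group. TBXT averaged 65.6 ± 2.74, 5.81 ± 1.77 and 0.073 ± 0.0836 CPM in the same order. Fibroblast markers, 9 genes, summed to 85.8 to 90.2 CPM with the inhibitor, 165 to 180 CPM in N2B27 and 14.7 to 20 CPM in PXGL. THY1 contributed 43.4 ± 3.13, 118 ± 8.39 and 0.623 ± 0.164 CPM in the same order, COL1A1 19.2 ± 0.927, 25.6 ± 0.374 and 14.01 ± 2.68 CPM, and COL1A2 23.3 ± 0.688, 28.3 ± 1.28 and 2.48 ± 0.259 CPM. All 4 tested fibroblast markers, these and PDGFRB, were higher in N2B27 than in PXGL; with the inhibitor against N2B27, 3 were lower and PDGFRB did not pass, and the number lower was 1 without replicate 1 or 2 of the inhibitor group or replicate 1 or 3 of N2B27. Of the 5 others, FAP had no count in any group, DCN had none in either N2B27 group and LUM none in N2B27 or PXGL. COL3A1 also had no count in N2B27. THY1 made the largest part of this sum in both N2B27 groups, so the sum does not identify fibroblasts. VIM was higher in N2B27 than in PXGL together with the sum, and higher with the inhibitor where the sum was lower. Whether any cells were fibroblasts was not tested. Extraembryonic mesoderm markers, 6 genes, summed to 29.6 to 38.9, 12.1 to 12.8 and 10.1 to 12.6 CPM, and the 5 hypoblast markers to 35.8 to 39.7, 20.3 to 21.2 and 13.2 to 14 CPM, in N2B27 with EPZ-6438, N2B27 and PXGL. With the inhibitor against N2B27, 3 of 4 and 2 of 3 tested genes of these lists were higher and 0 lower. In the same order of groups, the 5 neuroectoderm markers summed to 339 to 364, 292 to 324 and 142 to 175 CPM. Only 2 of them were tested, and in N2B27 against PXGL 1 was higher and 1 lower. The 6 primed and formative pluripotency markers summed to 198 to 216, 377 to 385 and 49.3 to 57.5 CPM. Of these, 2 were higher and 3 lower with the inhibitor against N2B27. The 5 naive markers summed to 2240 to 2320, 2060 to 2070 and 2470 to 3030 CPM, with 3 higher and 2 lower with the inhibitor against N2B27. The 6 neural crest markers summed to 123 to 127, 93.9 to 100 and 119 to 147 CPM. Of these 3 were tested, with 1 higher and 1 lower in each comparison. Trophectoderm or amnion markers, 9 genes, had sums that lay close together at 94 to 105, 92 to 96.9 and 101 to 107 CPM, but single genes differed. With the inhibitor against N2B27, 4 of the 8 tested were higher and 0 lower (median log2 1.30). In N2B27 against PXGL 2 of these were higher and 4 lower. The part of all these cell types in the differences of the cadherins and EMT regulators was not tested.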

How the data were processed

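The authors deposited a table of expected counts (estimates, not always whole), with 40332 gene symbols in rows and 9 libraries in columns. Between 7.13% and 8.09% of values per library were not whole. Per the labels' protocols, Trizol was used to extract RNA and ribosomal RNA was depleted, although the molecule label names polyA RNA. Per the submitters' processing notes, the genome was hg38 and the tools included STAR 2.7.6a, Trim Galore and DESeq2. The sources used here name neither the counting program nor its annotation or strand setting.

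Expected counts were rounded. Genes were filtered with edgeR's filterByExpr (minimum count 10), which kept 15179 of the 22640 genes that had a count. Enough counts in as many libraries as a group holds pass this filter, so some genes were tested only through the group where they were high. A single model with a term per group was fitted to the 9 libraries (edgeR 4.0.16 in R 4.3.3, TMM scaling, robust quasi-likelihood fit, Benjamini-Hochberg adjustment, called at adjusted p under 0.05 without a fold threshold). Alternatives used DESeq2 1.42.0, other filters and scalings, a required 1.5-fold change, fewer groups or libraries and a replicate block. The fit was tested on simulated data with 200 changed genes. CPM are TMM-scaled, and levels per kilobase used the median length of basic coding transcripts in GENCODE 29, to which 36547 symbols matched. Counting intervals (95%) and floors cover counting error only and leave out differences among libraries. They also make no allowance for PCR copies.

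The 10 genes and the lists were chosen with earlier results of these data known. Within each list, up to 4 called genes with the smallest adjusted p are named; 1 of them is not reported here. Although the series text mentions duplicate RNA-seq beside triplicate samples, the labels give 3 libraries per group. Replicate pairs differed by more than sampling noise (chi-square over its degrees of freedom 2.57 to 26.3), so all 9 were kept. Whether they are separate cultures is not stated; p-values then reflect differences among libraries that could be technical.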

Additional observations from a re-analysis of the deposited data

How the results depend on the processing

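Over the alternatives run for the 8 tested genes in 3 comparisons, 354 values kept their direction and side of the threshold, 24 lost a call, 3 gained one and 2 changed sign. The sign changes were of CDH3 with EPZ-6438 against PXGL, which did not pass, at -0.0177 without replicate 3 of the inhibitor group and -0.0072 without PXGL replicate 1 (from -0.0177 to 0.0382 over single libraries left out). When a change of more than 1.5-fold was required, 0 of the genes were called with the inhibitor against N2B27, where edgeR's test without that requirement called 5 and an unadjusted p under 0.05 held for 6 and DESeq2 called 5, and 3 (CDH1, CDH2 and VIM) in N2B27 against PXGL, where the test called 8. The same requirement called 724, 2956 and 2928 of all genes in the inhibitor group against N2B27, N2B27 against PXGL and the inhibitor group against PXGL, where 3752, 8505 and 8515 were called without it. Leaving out single libraries gave 3 to 6 of the genes and 2762 to 5770 of all genes with the inhibitor against N2B27, the highest number without PXGL replicate 1, and fitting only these 2 groups gave 5641. CDH3, VIM and SNAI1 were called with the inhibitor against N2B27 under 15 of 16 alternatives, the exception being the required 1.5-fold change. Libraries with the same replicate number did not deviate together over the genes tested (correlations of -0.026 to 0.037). This check gave no sign of a broad shared effect but cannot exclude a pairing that touches only part of the genes. With a replicate block the 3 comparisons, in the same order, called 5, 8 and 6 of the genes and 3696, 8507 and 8489 of all genes. Of the values for the lists, 1578 stayed within 1.5 times and 150 moved further. ZEB2 in N2B27 against PXGL could not be tested when only these 2 groups were fitted, since it fell below the filter. Depth limits CDH2 and ZEB2, with 15 to 100 counts per group, and SNAI2 and ZEB1, with 2 to 8.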

Other observations

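Across the 9 libraries, the 3 genes most like CDH1 in log CPM among 10666 compared were SLC6A6 (Pearson r 0.9966), TGFBR3 (0.9959) and MYO9B (0.9957). Those most like VIM were HUNK (0.9985), TUBB2A (0.9977) and ASS1 (0.9974). These correlations describe 3 groups that differ between each other and carry no test.

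VIM per kilobase was 33.7, 31.8 and 30.8% of the CDH1 level in N2B27 with EPZ-6438, 31.3, 26.1 and 25.1% in N2B27, and 2.25, 1.4 and 1.51% in PXGL. The N2B27 groups overlapped in this ratio, since both genes were higher with the inhibitor. CDH2 was 0.42, 0.621 and 0.709% of CDH1 with the inhibitor, 0.43, 0.295 and 0.383% in N2B27, and 0.0838, 0.0197 and 0.0788% in PXGL.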
